A study of Homo sapiens with 6 samples.

Results

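The 10 genes PAX8, EMX2, WT1, SOX17, GATA2, GATA4, GATA6, TCF21, HAND2 and FOXO1 encode transcription factors that mark the epithelium and the stroma of the female reproductive tract. They are a named list, with no threshold on measured values, drawn up when earlier results of these data were known, and all 10 were found among the 58336 gene identifiers of the count tables. RNA was sequenced from 12Z, an immortalised human line of endometriotic epithelial cells, that is, of endometrium-like epithelium growing outside the uterus. One group received an siRNA against SMARCA4 (siBRG1, n = 3 libraries) and the other a non-targeting siRNA (control, n = 3). The protein made from SMARCA4 is BRG1, the motor subunit of SWI/SNF complexes, which move nucleosomes. Both groups received 50 nM siRNA in medium without antibiotic, had been grown in 10% serum, had their medium changed at 24 h and again, to 0.5% serum, at 48 h, and gave RNA at 72 h. The series' title places the comparison in a study of SWI/SNF loss and epithelial integrity. A transfected line has no stroma beside it, so levels of stromal factors below are levels in 12Z cells.

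The labels say that all 3 control libraries were re-analysed data of an earlier deposit, which no siBRG1 library was, so batch and siRNA cannot be told apart for any gene below. The sense-strand counts came to 12391161 to 13369692 per siBRG1 library and 40228678 to 49720320 per control library, so low genes were measured less precisely in siBRG1. Reads that overlapped no annotated exon on the sense strand, inside a gene or outside, made up 3.97% of reads in siBRG1 and 13.3% in control. Reads mapping to several places made up 20.3% and 9.81% (all means of 3). The labels leave it unsaid whether replicates came from separate cultures, and p-values therefore reflect only library-to-library spread, possibly technical. SMARCA4, the siRNA target, fell from 258 ± 11.8 CPM in control to 63.3 ± 14.4 CPM in siBRG1 (SD, n = 3; log2 fold change −2.03, SE 0.161, adjusted p = 0.000267). CPM are counts scaled to the TMM-normalised library total. Log2 fold changes put siBRG1 over control and carry a standard error (SE), and adjusted p-values come from edgeR's quasi-likelihood test with Benjamini-Hochberg adjustment over all 15830 genes tested, where under 0.05 counted as a call.

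As background, the Mullerian duct gives rise to the oviduct, the uterus and the upper vagina. PAX8 and EMX2 act in the formation of its epithelium, and SOX17 is a factor of the endometrial glands. The stroma under these glands carries WT1, GATA2, TCF21, HAND2 and FOXO1, and under progesterone HAND2 and FOXO1 take part in decidualization, the change of stromal fibroblasts that prepares the uterus for an embryo. GATA2 works beside the progesterone receptor, GATA6 has been linked to endometriotic stromal cells, and GATA4 acts in the gonad and the heart.

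Of the 10 genes, 7 were expressed, at a mean of at least 1 CPM in one of the groups, and 3 (EMX2, SOX17 and GATA4) held too few counts to be tested. TCF21 reached that level only in siBRG1 (1.17 CPM, beside 0.947 CPM in control). PAX8 (1.86-fold) and WT1 (1.45-fold) rose in siBRG1. GATA2 (1.35-fold), FOXO1 (1.33-fold) and GATA6 (1.16-fold) fell. HAND2 and TCF21 did not pass the test. These 5 calls among 7 tested genes compare with 72.6% of all tested genes that were called, 36.1% higher and 36.5% lower, so the share of these factors that passed was near that of the transcriptome. None of the 7 changed by 2-fold or more, against 21.6% of tested genes that were called with such a change. Ignoring strand, 4 of the 7 were called, beside 72.2% of all genes tested that way, and after per-library trends on GC content and gene length had been taken out, 6 of the 7, beside 70.6%. Their median log2 fold change was −0.08, beside −0.01 over all tested genes. CPM of the groups did not overlap for any of the 7, nor for 74.3% of tested genes.

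**Figure D1:**
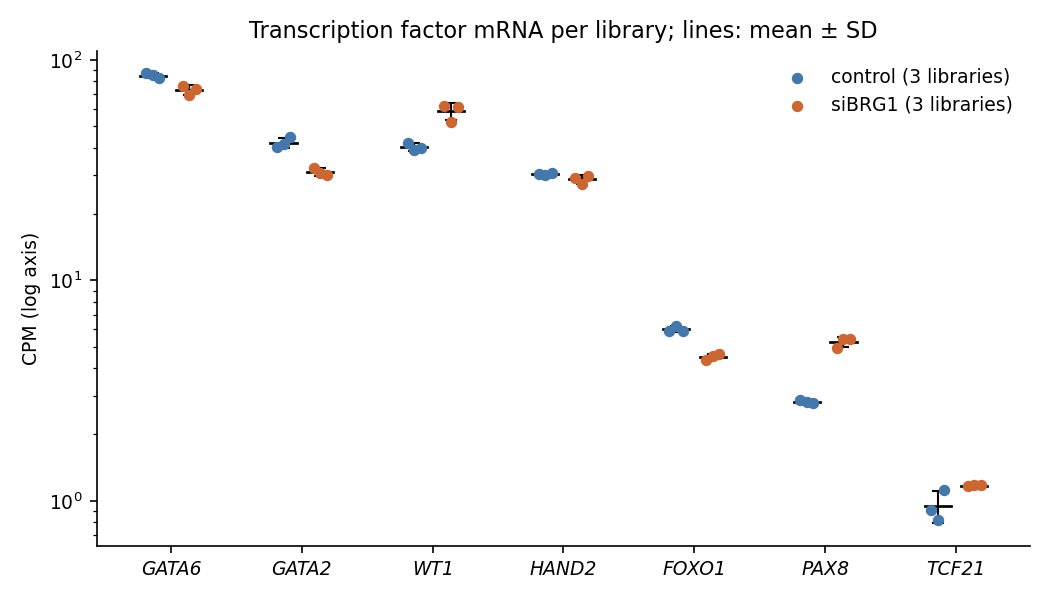
Sense-strand CPM (log axis) of the 7 tested transcription factors in each library, with siBRG1 and control side by side and lines for mean ± SD (n = 3). PAX8 and WT1 lie higher in all siBRG1 libraries, GATA2, GATA6 and FOXO1 lower, and the gap between groups is narrowest for HAND2 (28.8 against 30.4 CPM).

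The sequence just before each start is given for the 5 genes that were called, to show what kind of promoter each has. The stretches come from the RefSeq promoter table (GRCh38.p14), which held windows of 300 bases, 250 before and 50 after the start, for 8 of the 10 genes. SOX17 and GATA4 had none. WT1 had 4 windows and GATA2 had 2, and only the window nearest the GENCODE start was used here and below. Each stretch is written 5′ to 3′ on the gene's strand and ends before both the RefSeq and the GENCODE start, with CG dinucleotides, the sites of DNA methylation, in capitals.
PAX8 (chr2:113278951-113279171, minus strand): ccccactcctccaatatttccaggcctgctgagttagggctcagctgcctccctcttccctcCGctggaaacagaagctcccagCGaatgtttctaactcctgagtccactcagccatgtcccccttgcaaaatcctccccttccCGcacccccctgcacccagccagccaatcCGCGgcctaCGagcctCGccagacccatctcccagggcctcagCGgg
WT1 (chr11:32435631-32435789, minus strand): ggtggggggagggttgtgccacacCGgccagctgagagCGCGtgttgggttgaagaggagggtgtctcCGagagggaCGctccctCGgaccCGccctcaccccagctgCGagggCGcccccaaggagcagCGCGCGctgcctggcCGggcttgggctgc
GATA2 (chr3:128493202-128493451, minus strand): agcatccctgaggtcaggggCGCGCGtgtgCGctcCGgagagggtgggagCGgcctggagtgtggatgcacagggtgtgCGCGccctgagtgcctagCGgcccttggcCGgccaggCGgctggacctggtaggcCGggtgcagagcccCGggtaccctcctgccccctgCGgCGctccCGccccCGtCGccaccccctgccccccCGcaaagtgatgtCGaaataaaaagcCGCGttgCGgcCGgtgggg
GATA6 (chr18:22169339-22169442, plus strand): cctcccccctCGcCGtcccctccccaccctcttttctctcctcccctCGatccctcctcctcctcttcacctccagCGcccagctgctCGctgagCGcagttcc
FOXO1 (chr13:40666642-40666891, minus strand): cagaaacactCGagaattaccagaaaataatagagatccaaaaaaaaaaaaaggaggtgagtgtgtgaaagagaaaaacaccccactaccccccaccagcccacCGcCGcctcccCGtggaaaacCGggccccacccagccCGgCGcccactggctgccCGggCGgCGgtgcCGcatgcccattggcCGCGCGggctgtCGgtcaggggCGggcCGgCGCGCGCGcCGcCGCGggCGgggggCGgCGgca

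Over the whole 300-base windows, FOXO1 held 33 CG, GATA2 29, GATA6 25, WT1 and EMX2 21 each, HAND2 15, PAX8 13 and TCF21 9, beside a median of 14 over all windows of the table. The 3 that fell held more CG than either gene that rose, which is a description of 5 windows. A link between CG content and direction was not tested. Windows were also searched on both strands for AGATAA, which GATA2 and its relatives bind (in 10.3% of 35116 windows), TGTTTAC (a forkhead motif, 3.42%) and TGANTCA (an AP-1 motif, 7.71%). AGATAA was found in 2 of the 8 windows, those of TCF21 and HAND2, and the other motifs in none of the 8. The 30 bases around each match are shown because both genes lie in a cell line with GATA2 and GATA6 mRNA, with the matched letters in capitals. In HAND2 the match is on the opposite strand and reads as TTATCT.
TCF21 (chr6:133889070-133889099, plus strand): cctctattccccAGATAAattcctagtgtc
HAND2 (chr4:173530384-173530413, minus strand): gccaagttttaaTTATCTtatggttatgag

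Of the Mullerian epithelial factors only PAX8 was expressed at 1 CPM or more. PAX8, a paired-box factor (ENSG00000125618.16, chromosome 2, 113215997 to 113278950, minus strand), stood at 4.95, 5.41 and 5.41 CPM in siBRG1 libraries 1 to 3 and at 2.86, 2.80 and 2.79 CPM in control libraries 1 to 3. Every siBRG1 library was above every control library, and the spread within each group was small beside the gap. The means were 5.26 ± 0.263 CPM and 2.82 ± 0.0400 CPM (SD, n = 3), with the log2 fold change at 0.90 (SE 0.167, adjusted p = 2.51e-05 by edgeR). The level was low: it rested on 68, 69 and 69 counts in siBRG1 and 139, 110 and 112 in control. Of all tested genes, 26.8% had a lower control level and 74.2% a smaller change than PAX8.

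The PAX8 call held for reads of the sense strand and was lost when strand was ignored. PAX8-AS1, a long non-coding RNA, is transcribed through PAX8 from the other strand, and exons of the pair share 685 bases, 9.26% of PAX8 exon length. Reads on the antisense strand of PAX8 exons stood at 7.36, 7.29 and 6.20 CPM in siBRG1 and at 11.6, 10.3 and 10.4 CPM in control, the opposite order to the sense strand. They made up 56.8 ± 3.23% of the stranded counts at PAX8 in siBRG1 and 79.2 ± 0.858% in control (SD, n = 3), so at this locus most reads in both groups came from the other strand. Counting without strand adds antisense reads and drops reads that overlap exons of both genes. The fold change of PAX8 was then −0.12 on the log2 scale (SE 0.124, adjusted p = 0.393 by edgeR on unstranded counts). Unstranded counts at PAX8 were 105, 94 and 95 in siBRG1 and 446, 312 and 328 in control, above the sense counts in every library. Part of the antisense reads thus overlapped no exon of PAX8-AS1. PAX8-AS1 itself rose, from 54.2 ± 1.17 to 66.7 ± 2.13 CPM (SD, n = 3; log2 fold change 0.30, SE 0.0520, adjusted p = 8.76e-06). The antisense reads at PAX8 went the other way, and their source was not tested.

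**Figure D2:**
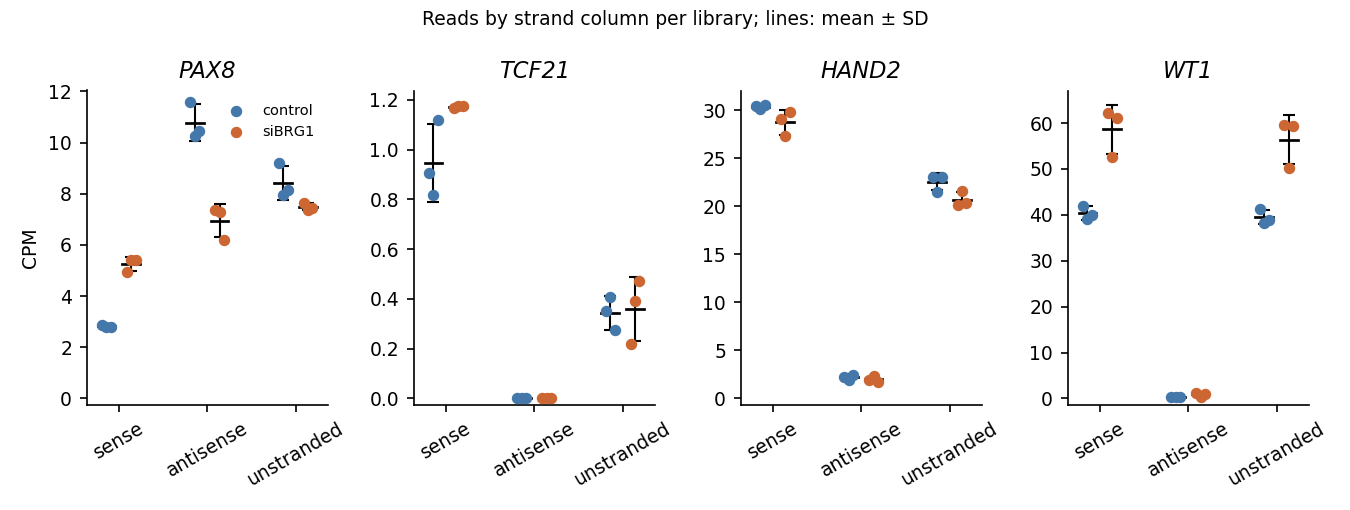
CPM of sense, antisense and unstranded reads at PAX8, TCF21, HAND2 and WT1, whose loci hold a transcript on the other strand, for each library of siBRG1 and control, with lines for mean ± SD (n = 3). At PAX8 sense reads are higher in siBRG1 (5.26 against 2.82 CPM) while antisense reads are lower (6.95 against 10.8 CPM), and unstranded reads lie close together (7.49 against 8.43 CPM).

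EMX2, a homeobox factor of the developing urogenital tract (ENSG00000170370.11, chromosome 10), had 0 counts in siBRG1, which over the 3 libraries allows up to 0.0765 CPM (3 counts; upper end of the exact two-sided 95% interval 0.0940 CPM), and 1 count in control. SOX17, of the SOX family (ENSG00000164736.5), had 1 count in siBRG1 and 6 in control, or 0.0255 CPM (exact 95% interval for counting 0.000645 to 0.142) and 0.0469 CPM (0.0172 to 0.102). Both lay far below PAX8, and no difference between groups was detectable at this depth. These limits cover counting error only, since reads carry no molecular identifiers.

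WT1, a zinc-finger factor of the coelomic lining, the gonad and endometrial stroma (ENSG00000184937.13, chromosome 11, 32387775 to 32435630, minus strand), was the other factor that rose. It stood at 62.2, 52.5 and 61.1 CPM in siBRG1 and at 42.0, 39.1 and 40.0 CPM in control. The lowest siBRG1 library, replicate 2, was still above the highest control library. The means were 58.6 ± 5.30 and 40.4 ± 1.49 CPM (SD, n = 3), with the log2 fold change at 0.54 (SE 0.0621, adjusted p = 9.33e-09 by edgeR). Its divergent neighbour WT1-AS, a non-coding RNA whose annotated start lies 112 bases away on the other strand, rose as well. WT1-AS went from 3.69, 2.78 and 3.16 CPM in control to 6.63, 7.29 and 6.82 CPM in siBRG1, with no overlap (log2 fold change 1.10, SE 0.159, adjusted p = 5.33e-07 by edgeR). At WT1 the unstranded level was close to the sense level (56.4 against 58.6 CPM in siBRG1), unlike at PAX8.

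The GATA zinc-finger factors that were expressed, GATA2 and GATA6, both fell. GATA2 (ENSG00000179348.11, chromosome 3, 128479427 to 128493185, minus strand) stood at 32.5, 30.7 and 30.2 CPM in siBRG1 and at 40.3, 41.6 and 44.6 CPM in control. All siBRG1 libraries were below all control libraries. The means were 31.1 ± 1.20 and 42.2 ± 2.24 CPM (SD, n = 3), with the log2 fold change at −0.44 (SE 0.0654, adjusted p = 1.00e-06 by edgeR). GATA2-AS1, whose start lies 3973 bases from that of GATA2 and which shares 0 exon bases with it, also fell (6.19 ± 1.23 against 8.56 ± 0.265 CPM, SD, n = 3; log2 fold change −0.47, SE 0.136, adjusted p = 0.00331).

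GATA6 (ENSG00000141448.8, chromosome 18, 22169443 to 22202528, plus strand) stood at 76.2, 69.3 and 74.2 CPM in siBRG1 and at 87.1, 85.3 and 82.9 CPM in control. The groups did not overlap, though the difference was small beside the level. The log2 fold change was −0.22 (SE 0.0497, adjusted p = 0.000331 by edgeR), and 24.1% of tested genes changed less. GATA6-AS1, which starts 435 bases away on the other strand, stood at 4.16 ± 0.747 and 4.18 ± 0.516 CPM (SD, n = 3; log2 fold change −0.0033, SE 0.175, adjusted p = 0.987), so no change was seen at this precision. After the same trends had been taken out, GATA2 came to −0.72 (adjusted p = 1.07e-10) and GATA6 to −0.43 (adjusted p = 1.34e-08 by edgeR), both further from 0. The partners GATA2-AS1 (−0.75) and PAX8-AS1 (0.56, from 0.30) also moved away from 0. The other called factors moved nearer to 0 and stayed called: PAX8 came to 0.76, WT1 to 0.38 and FOXO1 to −0.35. GATA4 (ENSG00000136574.17) had 1 count in each group. GATA3, a paralog, stood at 6.81 ± 1.23 and 7.99 ± 0.357 CPM (SD, n = 3) and did not pass (log2 fold change −0.24, SE 0.134, adjusted p = 0.114).

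**Figure D3:**
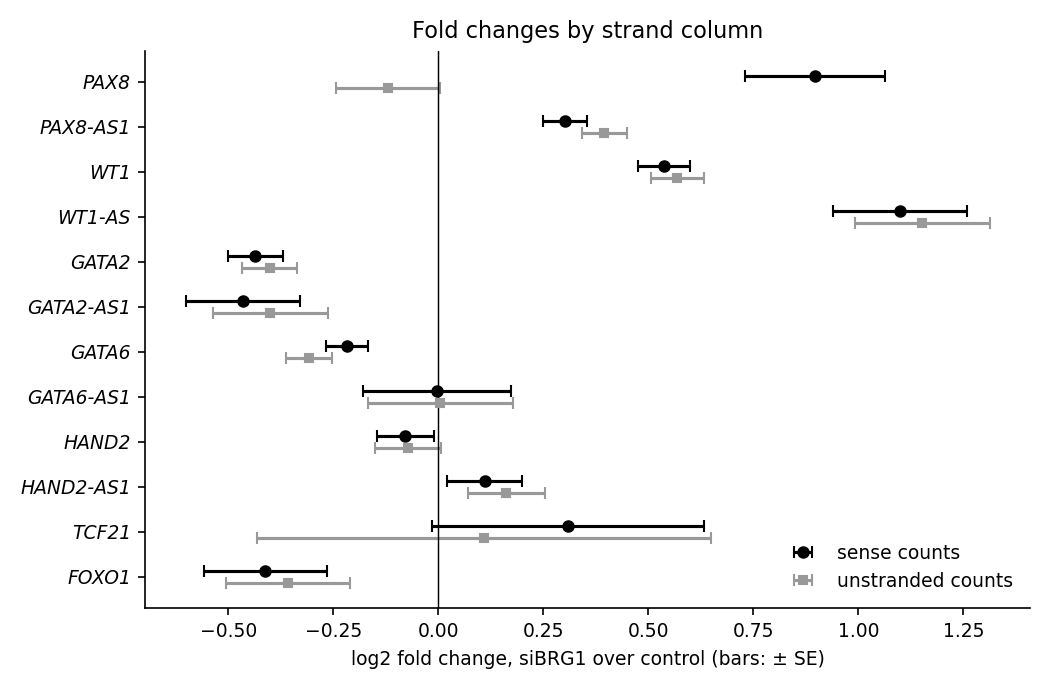
Log2 fold changes (siBRG1 over control, bars ± SE) of the tested transcription factors and their antisense or divergent non-coding neighbours from sense (black) and unstranded (grey) counts, with a line at 0. PAX8 lies at 0.90 by sense reads and at −0.12 without strand, whereas WT1 and GATA2 keep their side of 0.

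The stromal factors HAND2 and TCF21, both basic helix-loop-helix proteins, did not pass the test, and the forkhead factor FOXO1 fell. HAND2 (ENSG00000164107.8, chromosome 4, 173524969 to 173530229, minus strand), a mediator of progesterone action in stroma, stood at 29.1, 27.4 and 29.9 CPM in siBRG1 and at 30.4, 30.1 and 30.6 CPM in control. The libraries of siBRG1 were all lower, by little. The log2 fold change was −0.08 (SE 0.0674, 95% interval −0.21 to 0.05, adjusted p = 0.299 by edgeR). After the GC and length trends had been taken out it was −0.38 (adjusted p = 1.28e-05) and was called. HAND2-AS1, which shares 867 exon bases with HAND2, stood at 19.3 ± 0.977 and 17.8 ± 1.63 CPM (SD, n = 3; log2 fold change 0.11, SE 0.0891, adjusted p = 0.270), and at 0.46 (adjusted p = 5.91e-05) without those trends.

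TCF21 (ENSG00000118526.6, chromosome 6, 133889138 to 133895553, plus strand), a factor of mesenchymal cells, was the lowest of the 7. It stood at 1.17, 1.18 and 1.18 CPM in siBRG1 and at 0.906, 0.816 and 1.12 CPM in control, from 15 to 16 counts in an siBRG1 library and 32 to 45 in a control library. The siBRG1 libraries were all higher, yet the 95% interval of the log2 fold change (0.31, SE 0.323, adjusted p = 0.398 by edgeR) ran from −0.33 to 0.94. A change of the size seen for PAX8 was within that interval. Exons of TARID, a non-coding RNA on the other strand, cover 30.4% of TCF21 exons, and TARID had 1 count in siBRG1 and 4 in control. Unstranded counts gave TCF21 0.360 CPM in siBRG1, 0.304 of the sense level. That column leaves out reads that overlap both genes. Reads over TARID exons on the strand of TCF21 came to 13, 10 and 9 counts in siBRG1 and 27, 16 and 34 in control. Unstranded TCF21 counts were 3, 5 and 6 in siBRG1 and 17, 16 and 11 in control. Library by library, both together equal the sense counts (16, 15 and 15 in siBRG1, and 44, 32 and 45 in control). Whether single reads overlapped both genes was not tested.

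FOXO1 (ENSG00000150907.7, chromosome 13, 40469953 to 40666597, minus strand), which is held in the cytoplasm by insulin and AKT signalling and acts in decidualization, stood at 4.37, 4.55 and 4.63 CPM in siBRG1 and at 5.89, 6.22 and 5.92 CPM in control. Both groups were tight and apart. The means were 4.51 ± 0.131 and 6.01 ± 0.183 CPM (SD, n = 3), with the log2 fold change at −0.41 (SE 0.146, adjusted p = 0.0136 by edgeR). No antisense read was counted at FOXO1, and its unstranded counts equalled its sense counts.

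Compared per length (CPM per kb of merged exons), GATA6 was the highest of the 10 in both groups, at 21.6 ± 0.530 in control and 18.6 ± 0.900 in siBRG1 (SD, n = 3). In control it was followed by WT1 (9.81) and GATA2 (9.46), whose libraries overlapped, then HAND2 (8.44), FOXO1 (0.964), PAX8 (0.381) and TCF21 (0.208). In siBRG1 the order was GATA6, WT1 (14.2), HAND2 (7.99), GATA2 (6.98), FOXO1 (0.724) and PAX8 (0.711), whose libraries overlapped, and TCF21 (0.258). GATA2 thus ranked above HAND2 in control and below it in siBRG1, and PAX8 drew level with FOXO1. SOX17, EMX2 and GATA4 stood last in both groups. Among all tested genes by CPM in control, GATA6 lay above 80.9%, GATA2 above 65.9%, WT1 above 64.8%, HAND2 above 58.8% and FOXO1 above 34.5%.

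**Figure D4:**
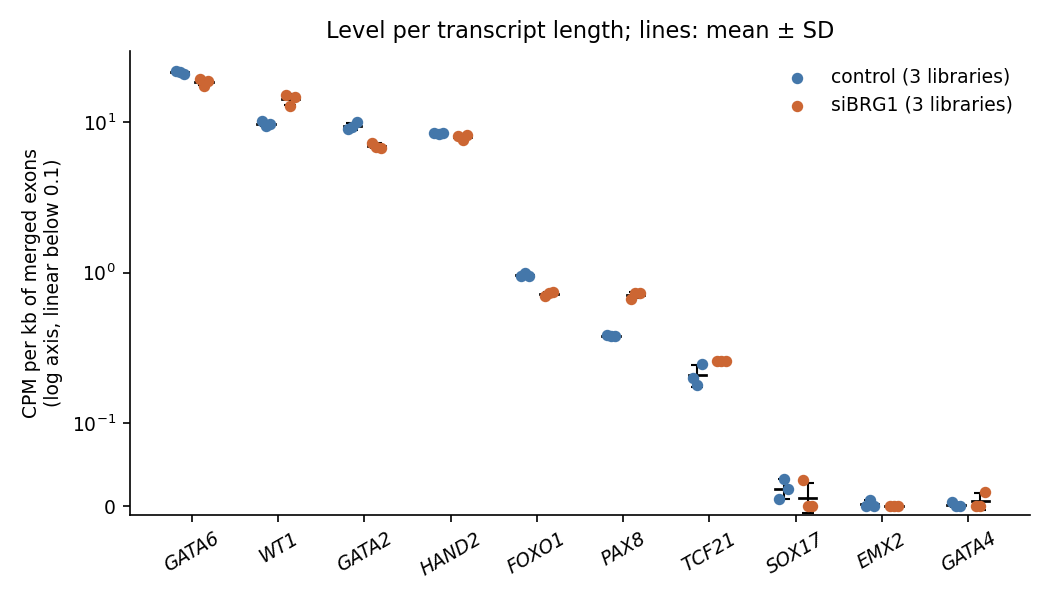
CPM per kb of merged exons (log axis, linear below 0.1) of all 10 transcription factors in each library, ordered by level, with lines for mean ± SD (n = 3). GATA6, WT1, GATA2 and HAND2 lie between 6.98 and 21.6, FOXO1, PAX8 and TCF21 between 0.208 and 0.964, and EMX2, SOX17 and GATA4 near 0.

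The deposited table of the authors lists 8 of the 10 factors, and its log2 fold changes have the same sign as those above for 7 of 7 tested. It puts PAX8 at 0.87, WT1 at 0.51, GATA2 at −0.46, GATA6 at −0.24 and FOXO1 at −0.44, all 5 past an adjusted p of 0.05 in the authors' deposited table. HAND2 (−0.10, adjusted p = 0.202) and TCF21 (0.28, adjusted p = 0.495) are not past it in the authors' deposited table.

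Of 36 other transcription factors of the tract, 19 were tested, 3 rose and 8 fell. That is 57.9% called, beside 72.6% of all tested genes (36.1% higher, 36.5% lower), and their median log2 fold change was −0.22. Among the risers were BHLHE40, a circadian and hypoxia repressor (log2 fold change 1.47, SE 0.0609, adjusted p = 1.98e-18) and TWIST1, a factor of mesenchyme (0.52, SE 0.113, adjusted p = 0.000196). TWIST1 lost its call once GC and length trends were taken out (0.22, adjusted p = 0.0675). The fallers with the largest changes were OSR1, an early factor of urogenital mesenchyme (69.7 ± 2.50 to 28.97 ± 2.33 CPM), ZFHX3 (14.9 ± 1.71 to 7.05 ± 2.24 CPM) and TBX3 (41.7 ± 0.415 to 20.5 ± 1.11 CPM, SD, n = 3). MEIS2, PBX3, MSX2, OSR2 and SOX9 also fell. The renal and Mullerian factor PAX2, the gonadal factor NR5A1, and EYA1, EHF and GRHL2 had 0 counts in all 6 libraries, and FOXA2, of endometrial glands, 0 in siBRG1 and 2 in control.

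Among 25 paralogs and binding partners, 13 were tested, 1 rose and 4 fell. That is 38.5% called, beside 72.6% of all tested genes, with a median of −0.23. The count of 5 was 9 with DESeq2 size factors, 8 without siBRG1 replicate 2 and 11 after GC and length trends were taken out. FOXO4, a paralog of FOXO1, rose from 10.5 ± 0.978 to 29.7 ± 2.58 CPM (SD, n = 3; log2 fold change 1.50, SE 0.0908, adjusted p = 1.05e-14), so the FOXO paralogs did not share a direction: FOXO3 fell as FOXO1 did (−0.19, SE 0.0605, adjusted p = 0.00589). For FOXO3 the groups overlapped, with siBRG1 replicate 1 (67.8 CPM) above control replicate 1 (66.5 CPM). LHX9, a gonadal ridge factor that acts with WT1, fell from 28.9 ± 0.571 to 11.8 ± 0.133 CPM. ZFPM2, a cofactor of GATA proteins, fell with GATA2 and GATA6 (−0.37, SE 0.0753, adjusted p = 8.44e-05), and stood at −0.24 (adjusted p = 0.00552) without the GC and length trends. HAND1, the paralog of HAND2, fell from 0.681 ± 0.134 to 0.306 ± 0.0794 CPM (SD, n = 3; −1.14, SE 0.487, adjusted p = 0.0376), on 12 counts in siBRG1.

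Of 26 FOXO target genes listed, 25 were matched and 21 tested. Of these 11 rose and 6 fell, so 81.0% were called, beside 72.6% of all tested genes (36.1% higher, 36.5% lower), and the median was 0.27. TXNIP, an inhibitor of thioredoxin, went from 92.2 ± 1.84 to 273 ± 13.5 CPM, CCNG2, a cyclin of cell cycle arrest, from 35.0 ± 1.71 to 103 ± 3.90 CPM, and KLHL24 from 23.9 ± 1.54 to 52.0 ± 3.90 CPM (SD, n = 3). GADD45A (−0.64), a stress gene, TRIB1 (−0.47), a pseudokinase, and FBXO32 (−0.39), a ubiquitin ligase subunit, fell. Whether FOXO protein acted on any of them was not tested.

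Genes of decidualization and progesterone response moved both ways, with 11 of 23 tested higher and 7 lower from a list of 34. That is 78.3% called, beside 72.6% of all tested genes (36.1% higher, 36.5% lower). The median was 0.15, and turned to −0.05 with a filter of 50 counts and to −0.07 without siBRG1 replicate 3. CEBPD rose from 9.73 ± 0.762 to 71.7 ± 2.34 CPM, DCN, a matrix proteoglycan, from 11.5 ± 2.51 to 51.5 ± 9.18 CPM, and FGF7, a stromal growth factor, from 13.5 ± 0.916 to 28.5 ± 2.98 CPM (SD, n = 3). DKK1, a WNT inhibitor, fell from 914 ± 21.6 to 282 ± 20.9 CPM, NR2F2, a stromal nuclear receptor, from 349 ± 14.6 to 171 ± 9.20 CPM, and TIMP3, a protease inhibitor, from 150 ± 8.19 to 72.6 ± 12.3 CPM (SD, n = 3). PRL, a product of decidual cells, had 0 counts in all 6 libraries, as had ZBTB16, LEFTY2 and SST. IGFBP1, another such product, had 0 in siBRG1 and 5, 8 and 8 in the deeper control libraries. The hormone receptors were low, with PGR at 1.35 ± 0.227 CPM in control and 2.34 ± 0.335 CPM in siBRG1 (SD, n = 3; log2 fold change 0.78, SE 0.256, adjusted p = 0.00774). ESR1 held too few counts to be tested, at 0.397 ± 0.109 CPM in control and 0.0504 ± 0.0437 CPM in siBRG1 (SD, n = 3). These levels rest on 51 counts in the deeper control libraries and 2 in siBRG1.

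**Figure D5:**
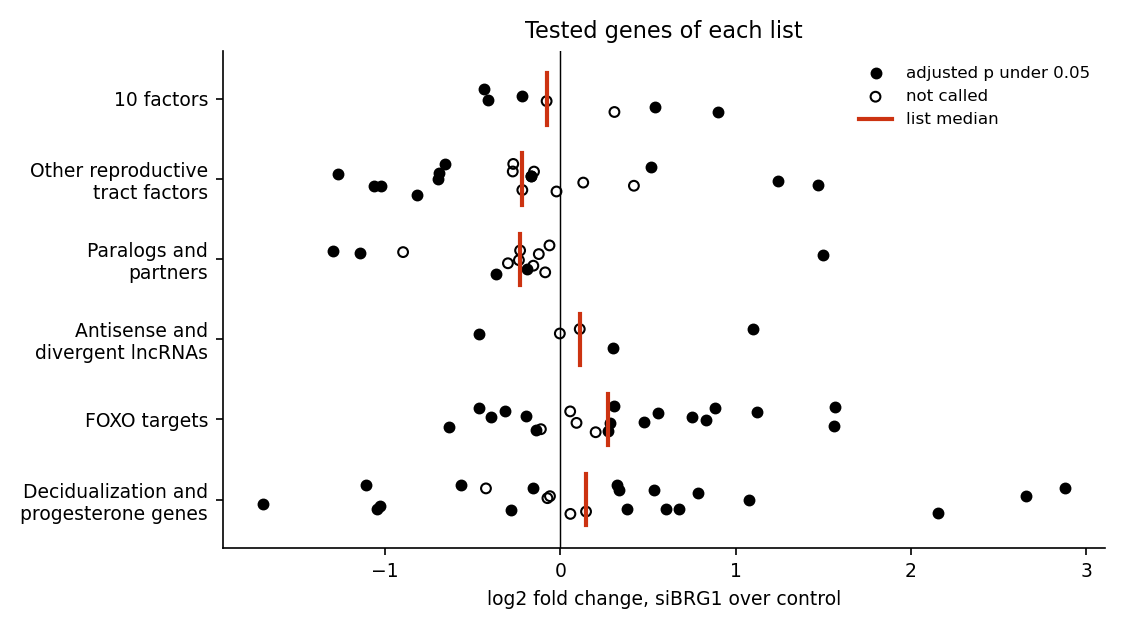
Log2 fold change (siBRG1 over control) of each tested gene in the gene lists, one row per list, with filled points for called genes, open points for the rest and a red line at each list's median. The 7 transcription factors lie between −0.44 and 0.90, a narrower span than the decidualization and progesterone response genes, which reach from −1.70 to 2.88.

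The 12Z label was checked against markers of the cell types a sample could hold. Keratins KRT8 (1556 CPM in control and 1655 in siBRG1) and KRT18 (1343 CPM in control and 1296 in siBRG1) were abundant, while EPCAM (0.251 CPM in control, 1.61 in siBRG1) and CDH1 (3.05 and 5.87) were low. The other keratins fell, KRT7 from 196 ± 9.10 to 36.9 ± 4.50 CPM (SD, n = 3; log2 fold change −2.40, adjusted p = 9.51e-24 by edgeR) and KRT19 from 883 ± 20.4 to 609 ± 14.4 CPM (−0.54, adjusted p = 1.76e-13). Summed over 9 epithelial markers, libraries stood at 3483 to 3738 CPM in siBRG1 and 3941 to 4026 in control, with 4 markers higher (EPCAM, CDH1, KRT8 and CLDN4) and KRT7 and KRT19 lower. The 9 markers of endometrial stroma summed to 6498 to 6943 CPM in siBRG1 and 4759 to 5002 in control, with 7 higher (among them COL3A1, LUM and DCN) and THY1 and VIM lower. The rise of that sum lay mostly in 2 collagens, COL3A1 (294 ± 33.7 to 1616 ± 98.3 CPM) and COL1A1 (1955 ± 75.4 to 2536 ± 95.3 CPM, SD, n = 3). Calls in this and the other marker lists stand beside 72.6% of all tested genes that were called. Of the stromal factors, WT1 rose, GATA2 and FOXO1 fell, and HAND2 and TCF21 did not pass the test. The part of the stromal markers in these results was not tested. The 5 mesothelial markers summed to 68.0 to 74.9 CPM in siBRG1 and 56.1 to 62.6 in control, beside the rise of WT1, which is also a mesothelial gene, and MSLN and CALB2 rose while LRRN4 fell. Blood cell markers CD3E, LST1 and TYROBP and the endothelial marker EMCN had 0 counts, and the 8 blood cell markers summed to 9.76 to 10.3 CPM in siBRG1 and 4.10 to 5.50 in control. CD14 made up most of that sum and rose from 4.08 ± 0.561 to 9.39 ± 0.443 CPM (SD, n = 3; log2 fold change 1.19, adjusted p = 1.43e-08 by edgeR). The 7 endothelial markers summed to 15.2 to 21.4 CPM in siBRG1 and 17.4 to 20.1 in control, where CDH5 rose from 0.512 ± 0.120 to 2.002 ± 0.456 CPM (SD, n = 3; log2 fold change 1.957, adjusted p = 6.25e-06 by edgeR) and VWF fell (−0.69, adjusted p = 0.0301). The 6 markers of smooth muscle and pericytes summed to 54.0 to 59.7 CPM in siBRG1 and 79.0 to 84.9 in control, with NOTCH3 higher and CNN1 and MCAM lower. In bulk RNA, fewer cells of a type and less RNA per cell cannot be told apart.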

How the data were processed

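RNA-seq counts per gene were compared in 3 siBRG1 and 3 control libraries of 12Z cells. The authors deposited raw gene counts in STAR's layout, unstranded and by strand. Per the submitters' processing notes, cutadapt, Trim Galore, FastQC, STAR and DESeq2 were used on GRCh38.p12; versions and annotation are not given in the sources used here. GENCODE 29, used for symbols, lengths and coordinates, held 58216 of the 58336 identifiers by unversioned ID and 56888 with the version. Per the file headers, the authors' deposited comparison table gives a mean signal (not used), log2 fold changes, a test statistic and weight (a score, not used) and p-values.

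The stranded column with the larger total (column 4) was the sense count, and column 3 the antisense count. Rows without a gene did not count towards library sizes. CPM of all columns used the TMM-normalised sense library. Tests used edgeR 4.0.16 (R 4.3.3): TMM, filterByExpr, robust quasi-likelihood fit on group, two-sided, Benjamini-Hochberg over 15830 genes. The SE is the absolute log2 fold change over the square root of F. The test was checked on simulated data in which few genes changed, so that check does not cover data where most genes change, as here. Libraries of a group differed by more than sampling noise. Alternatives used DESeq2 1.42.0, other filters, unstranded counts, GC and length offsets, a replicate block, and each library left out in turn.

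The members and lists were chosen with earlier results of these data known. Named genes were all members, SMARCA4, SMARCA2, the antisense list, and of each other list up to 6 called genes averaging 50 counts or more whose groups did not overlap, alternating largest rise and largest fall; groups of 5 or fewer were named in full, except that some genes the rule takes are not reported here. SOD2 matched more than 1 identifier and was left out. PGR, ESR1, FOXA2, GATA3, list genes named without a value, the factors at 0 counts and the named markers were chosen after their values were seen.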

Additional observations from a re-analysis of the deposited data

Results flagged for a closer look

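Reads on the antisense strand of WT1 exons belong to no comparison above and were more frequent in siBRG1. They stood at 1.17, 0.392 and 1.02 CPM in siBRG1 (mean 0.859 ± 0.411 CPM, SD, n = 3) and at 0.247, 0.255 and 0.298 CPM in control (mean 0.267 ± 0.0277 CPM, SD, n = 3). The siBRG1 values rest on 16, 5 and 13 counts, and replicate 2 is the lowest of them, as it is for WT1 sense reads. Exons of WT1-AS share 113 bases with WT1, and WT1-AS rose too. Whether these reads belong to it was not tested.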

How the results depend on the processing

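Over 34 named genes, 456 pairs of a gene and an alternative kept direction and side of the threshold, and 9 reversed. Among the reversed pairs, PAX8 with unstranded counts also lost its call. Of the pairs that kept direction, 4 gained a call and 1 (TWIST1) lost it. The count of called factors was 5 except with unstranded counts (4, PAX8 at −0.12) and with GC and length trends removed (6, with HAND2). Paralogs and partners called numbered 5, but 9 with DESeq2 size factors, 8 without a count filter, 9 with protein-coding genes only, 11 with GC and length trends removed, and 4 to 8 with 1 library left out (8 without siBRG1 replicate 2). GATA6-AS1 turned sign with a filter of 50 counts (0.011), with unstranded counts (0.0047), and with 1 library left out, where it ran from −0.14 to 0.11 (0.014 without siBRG1 replicate 1, 0.11 without replicate 3 and 0.08 without control replicate 2). SMARCA2, which encodes BRM, the alternative ATPase to BRG1, stood at 0.04 (adjusted p = 0.598 by edgeR) and came to −0.0051 without a filter, −0.0020 with protein-coding genes only, −0.040 without siBRG1 replicate 2, 0.14 (adjusted p = 0.0453) without siBRG1 replicate 3 and 0.35 (adjusted p = 2.98e-05) after removal of both trends. The cause of these shifts was not tested. Same-numbered libraries did not deviate together (r = −0.0126, 0.0220 and 0.00898 across genes), so the replicate block is only an alternative: with it, 5 of the factors and 11194 of all genes were called, against 5 and 11498. Low counts limit what can be said of TCF21, EMX2, SOX17 and GATA4.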

Other observations

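Further genes of the lists were looked at after their values were seen. WNT4, a ligand of Mullerian duct formation and decidualization, stood at 0.293 ± 0.0518 CPM in control and rose to 1.89 ± 0.205 CPM in siBRG1 (SD, n = 3; log2 fold change 2.65, SE 0.360, adjusted p = 1.84e-07 by edgeR), from a level below 1 CPM. HOXA10, which patterns the uterus, rose from 23.7 ± 0.866 to 37.8 ± 2.43 CPM (a log2 fold change 0.68, SE 0.0690, adjusted p = 8.65e-10 by edgeR), while its neighbour HOXA11 stood at 19.2 ± 0.833 and 18.2 ± 3.19 CPM (log2 fold change −0.07, SE 0.0959, adjusted p = 0.496 by edgeR). CALB2, a mesothelial marker, rose from 0.675 ± 0.0607 to 6.78 ± 0.913 CPM (a log2 fold change 3.31, SE 0.218, adjusted p = 6.98e-14 by edgeR). All values are means ± SD of 3 libraries a group.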
